A study of Homo sapiens with 18 samples.

Results

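The NBPF and the NOTCH2NL genes are separate families of duplicated genes of human chromosome 1, whose copies differ in how alike they are. Of these genes, 10 were examined here: NBPF1, NBPF3, NBPF8, NBPF9, NBPF10, NBPF12, NBPF14, NBPF20, NOTCH2NLA and NOTCH2NLC. The 10 genes were chosen by their anti-GFP ChIP–seq windows without doxycycline and by falls of DRIP–seq signal in A3B KO cells, so the values behind both are given as a description only. A window was assigned to a gene when its midpoint lay between the ends of the gene in hg38 or within 2 kb of its start, and a window inside overlapping genes was counted once. Of 774635 windows in 9 peak lists, 806 fell in these genes.

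DRIP–seq, an immunoprecipitation of DNA:RNA hybrids with the S9.6 antibody, was run in MCF10A cells, an immortal breast epithelial line that forms no tumours and keeps a basal character. WT and A3B KO cells were each treated with DMSO or with PMA, a protein kinase C activator, at 25 ng/ml for 2 h or 6 h, giving 6 lists from cells with no A3B-eGFP. The A3B KO line was a single-cell clone made with a guide that cuts in both APOBEC3A and APOBEC3B. Anti-GFP ChIP–seq was run in MCF10A-TREx-A3B-eGFP cells, in which doxycycline induces A3B tagged with GFP, giving 3 lists: no doxycycline with DMSO (DOX-), and doxycycline at 1 μg/ml for 24 h with DMSO (DOX+) or with PMA for 2 h (DOX+ PMA). All 9 lists came from 1 library per condition, each called against its own input. No test between conditions could be made, and every difference below is a difference between single libraries with no replicate check. Fewer cells with a hybrid and fewer hybrids per cell cannot be told apart in such samples.

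Each listed window was 500 bp long around a summit and carried the pileup at the summit and its fold enrichment over the input, both computed by the authors. Windows numbered 91894, 111771 and 165877 windows in WT and 98432, 120428 and 169126 in A3B KO (DMSO, PMA 2 h, PMA 6 h). They numbered 4040, 5945 and 7122 in the DOX-, DOX+ and DOX+ PMA ChIP–seq. The reads behind each list are unknown. APOBEC3B held 0, 1 and 2 DRIP windows in WT and none in any A3B KO list, and 3, 5 and 6 ChIP windows. APOBEC3A held 2, 1 and 1 windows in WT and 2, 2 and 1 in A3B KO. A window fell in 11 of 11 basal markers in WT DMSO cells, KRT5, KRT14 and TP63 among them, and in 4 of 6 luminal markers, KRT8 and KRT18 among them. Of all protein-coding genes, 70.1% held one, and no cell type is read from these counts.

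NBPF genes encode proteins built from repeats of the Olduvai domain, whose copy number is far higher in humans than in other primates. The family takes its name from neuroblastoma, where NBPF1 was found at a chromosomal breakpoint. NOTCH2NL genes are partial copies of NOTCH2, a receptor of the Notch pathway. Their short proteins hold part of the outer portion of the receptor and enhance Notch signalling in progenitor cells of the cortex. R-loops, the hybrids that DRIP–seq captures, form when nascent RNA pairs with its DNA template and leaves the other DNA strand single stranded, and APOBEC3B deaminates cytosines in single-stranded DNA.

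A set of sequences showed what these genes share and where the copies differ. The first is a stretch of 300 bp about 0.8 kb inside the NOTCH2NL genes, a place called in all 6 DRIP lists at NOTCH2NLA and at NOTCH2NLC. All copies are written on the strand of the gene, with bases that differ from NOTCH2NLA in capitals. The copy of NOTCH2NLA lay at chr1:146228094-146228393 on the minus strand, that of NOTCH2NLB, which starts together with NBPF14, at chr1:148678847-148679146 on the minus strand, that of NOTCH2NLC at chr1:149391238-149391537 on the plus strand and that of NOTCH2 at chr1:120068739-120069038 on the minus strand (hg38).
NOTCH2NLA: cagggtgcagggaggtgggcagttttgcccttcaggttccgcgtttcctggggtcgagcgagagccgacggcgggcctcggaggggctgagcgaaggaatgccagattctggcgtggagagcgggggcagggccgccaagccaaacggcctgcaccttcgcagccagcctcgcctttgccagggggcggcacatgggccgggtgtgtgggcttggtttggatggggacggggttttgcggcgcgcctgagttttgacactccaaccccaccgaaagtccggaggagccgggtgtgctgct
NOTCH2NLB: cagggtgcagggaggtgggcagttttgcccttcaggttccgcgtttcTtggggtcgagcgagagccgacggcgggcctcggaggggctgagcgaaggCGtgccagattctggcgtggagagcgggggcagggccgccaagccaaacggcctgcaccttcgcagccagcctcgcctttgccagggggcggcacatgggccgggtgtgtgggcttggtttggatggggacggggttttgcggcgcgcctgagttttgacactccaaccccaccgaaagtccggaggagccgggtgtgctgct
NOTCH2NLC: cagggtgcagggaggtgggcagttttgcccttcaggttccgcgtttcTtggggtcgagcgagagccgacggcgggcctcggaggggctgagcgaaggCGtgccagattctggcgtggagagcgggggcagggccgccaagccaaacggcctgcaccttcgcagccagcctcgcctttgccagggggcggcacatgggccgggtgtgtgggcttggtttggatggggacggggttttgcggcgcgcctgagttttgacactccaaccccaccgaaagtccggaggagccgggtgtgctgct
NOTCH2: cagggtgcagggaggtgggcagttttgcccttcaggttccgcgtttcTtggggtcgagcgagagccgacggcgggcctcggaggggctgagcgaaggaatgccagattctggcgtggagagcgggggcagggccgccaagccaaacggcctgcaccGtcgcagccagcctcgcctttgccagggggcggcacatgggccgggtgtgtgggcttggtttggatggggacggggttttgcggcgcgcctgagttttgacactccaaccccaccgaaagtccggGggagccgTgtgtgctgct
NOTCH2NLB and NOTCH2NLC each differed from NOTCH2NLA at 3 of 300 bases and NOTCH2 at 4.

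The second is a position about 6 kb from the start of the NBPF genes that DRIP windows marked in 6 of the 8 NBPF genes examined. The position was chosen after its values were seen. It is shown because NBPF1 and NBPF3 differ enough there for reads to tell them apart. Capitals mark bases that differ from NBPF1 or have no partner in it. The stretch of NBPF1 lay at chr1:16607319-16607558 on the minus strand, that of NBPF3 at chr1:21446170-21446410 on the plus strand and that of NBPF8 at chr1:120421075-120421310 on the plus strand (hg38).
NBPF1: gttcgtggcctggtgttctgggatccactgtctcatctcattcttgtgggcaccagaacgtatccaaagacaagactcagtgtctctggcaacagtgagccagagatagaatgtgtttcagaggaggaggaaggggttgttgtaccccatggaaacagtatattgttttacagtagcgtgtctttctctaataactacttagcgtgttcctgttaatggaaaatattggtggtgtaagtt
NBPF3: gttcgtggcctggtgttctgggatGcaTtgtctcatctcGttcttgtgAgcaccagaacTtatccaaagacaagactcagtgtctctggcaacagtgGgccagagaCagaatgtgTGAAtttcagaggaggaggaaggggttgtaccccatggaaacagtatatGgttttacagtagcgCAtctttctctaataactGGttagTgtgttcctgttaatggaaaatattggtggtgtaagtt
NBPF8: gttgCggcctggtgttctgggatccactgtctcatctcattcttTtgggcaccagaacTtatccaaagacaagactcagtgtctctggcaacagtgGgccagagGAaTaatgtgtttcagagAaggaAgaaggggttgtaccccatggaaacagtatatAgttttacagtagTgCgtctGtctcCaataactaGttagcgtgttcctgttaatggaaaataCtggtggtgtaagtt
Identity to NBPF1 was 92.9% for NBPF3 and 91.7% for NBPF8.

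DRIP windows were denser in the 10 genes than in genes at large, in every DRIP list. The genes held 105 windows in WT DMSO cells (0.114% of the list, 95% Wilson interval 0.0944 to 0.138, which covers counting error only) and 106 in A3B KO DMSO cells (0.108%, 0.0891 to 0.13). At 2 h of PMA they held 104 in WT (0.093%, 0.0768 to 0.113) and 90 in A3B KO (0.0747%, 0.0608 to 0.0918). At 6 h they held 122 in WT (0.0735%, 0.0616 to 0.0878) and 147 in A3B KO (0.0869%, 0.074 to 0.102). Per 100 kb of gene, these were 13, 13.1, 12.9, 11.1, 15.1 and 18.2 windows in that order, against 4.28, 4.52, 4.86, 5.39, 6.99 and 7.32 over the spans of all 19970 protein-coding genes. Not every gene lay above that value. In WT DMSO cells, NBPF3, NBPF8 and NOTCH2NLC held 2.13, 3.53 and 3.61 windows per 100 kb, below 4.28, and the rest held more. The measures of strength differed. The median fold was below that of the whole list in all 6 DRIP lists (4.19 against 4.32 in WT and 3.73 against 4.31 in A3B KO with DMSO), and the median pileup was above it in all 6 (28 against 21 and 27 against 20 with DMSO). A window was listed in 10, 10 and 10 of the genes in WT and in 9, 9 and 10 in A3B KO, against 70.1%, 70.8% and 77.6% of protein-coding genes in WT and 71.9%, 73.5% and 77.2% in A3B KO.

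The windows were spread unevenly over the genes, as the plot of windows by gene and list shows. NBPF10 held 30, 26, 26, 18, 25 and 45 DRIP windows (WT and A3B KO with DMSO, then with PMA for 2 h, then for 6 h, the order used for all 6 values below), and NBPF14 held 25, 34, 25, 30, 21 and 27. These are also the longest of the genes, at 164 and 148 kb. NBPF1 held 18, 12, 16, 18, 33 and 17 in 51.2 kb and so had the most windows per 100 kb, from 22.5 to 62, in every DRIP list except A3B KO with DMSO, where NBPF14 had 22.6. NBPF20 held 8, 10, 12, 4, 9 and 22, NBPF12 held 8, 9, 7, 8, 9 and 12, and NBPF9 held 10, 8, 7, 5, 5 and 10. NBPF8 held 2, 5, 5, 3, 11 and 5. NOTCH2NLA held 6, 6, 4, 6, 8 and 15, all of them also counted to NBPF10, whose annotated start lies beside its own, and NOTCH2NLC held 3, 2, 5, 4, 8 and 8. NBPF3 held at most 1. Most windows lay in introns, 91 of 105 in WT DMSO cells, with 13 in exons and 1 upstream.

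**Figure D1:**
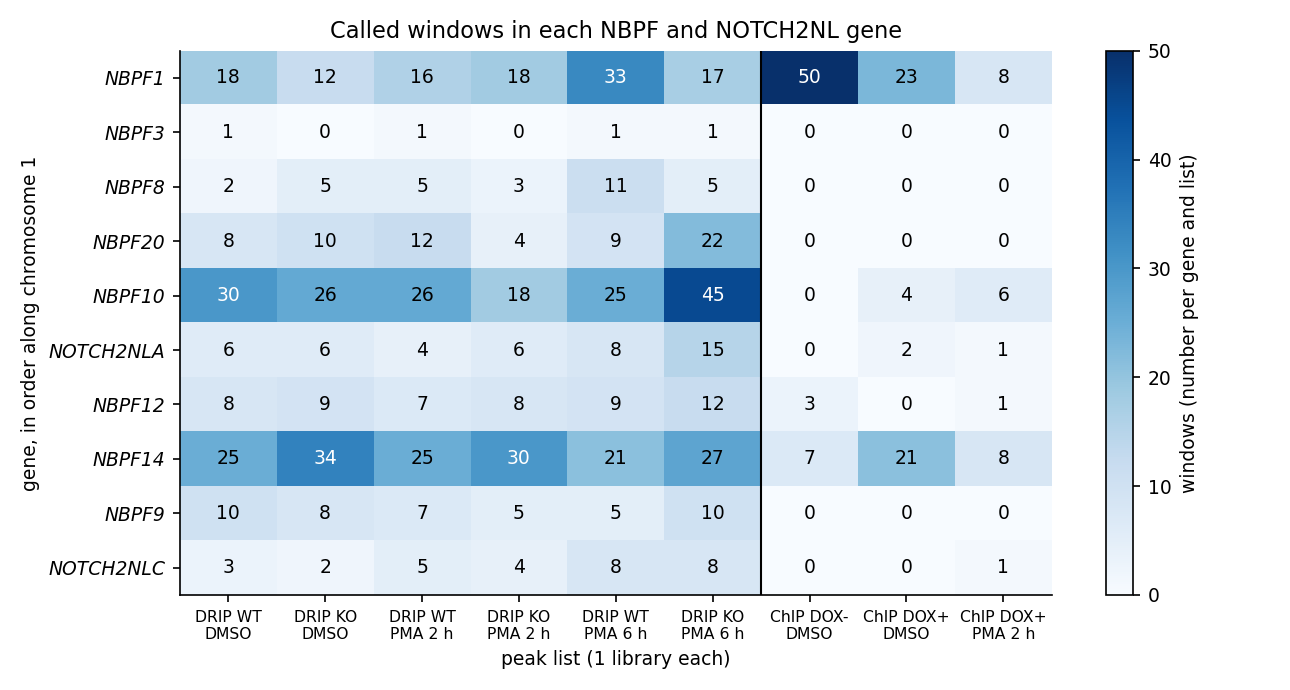
Number of called windows in each of the 10 genes (rows, in order along chromosome 1) in each of the 9 peak lists (columns, 1 library each), with the number in each cell; the line separates DRIP–seq from ChIP–seq. NBPF1 stands out in the DOX- ChIP list with 50 windows, and 7 of the 10 genes hold 0 there.

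Some places were called in every DRIP list and more of them in 1 list alone. The 806 windows merged into 192 places, of which 36 were called in all 6 DRIP lists, 59 in 1 DRIP list and 11 in none. NBPF14 held 9 of the 36, NBPF10 held 8 and NBPF1 held 7. Of windows in WT DMSO cells, 69.5% (60.2 to 77.5) overlapped a window in A3B KO DMSO cells, against 59.4% over the whole list, and of windows in A3B KO DMSO cells, 71.7% (62.5 to 79.4) overlapped one in WT, against 55.7%. This was not so at every time: of windows in A3B KO cells at 6 h of PMA, 57.8% (49.7 to 65.5) overlapped one in WT cells at 6 h, against 64.3%, and of windows in WT DMSO cells, 62.9% (53.3 to 71.5) overlapped one in WT cells at 6 h, against 70.1%. A place called in all 3 WT lists and no A3B KO list was found 2 times, in NBPF8 and NBPF10, and the opposite 1 time, in NBPF14. Windows were merged into places in these genes alone, so no count of places over the whole lists stands beside these counts. The genes were chosen in part by falls of DRIP–seq signal in A3B KO cells, so nothing about a loss is read from them.

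Almost every window had a copy elsewhere on chromosome 1. A further place with at least 95% identity over 80% of the window was found for 102 of 105 windows in WT DMSO cells (97.1%) and for 94.3% to 97.2% in the other DRIP lists. The DRIP windows of NBPF10 and NBPF14 had a median of 51 and 54.5 such copies, those of NBPF1 a median of 8 and those of NOTCH2NLA and NOTCH2NLC a median of 4. Only the 4 windows of NBPF3 had a median of 0. Runs of 150 bases that recur exactly give a read of that length no single place by its own bases. They filled a median of 72.9% of a DRIP window in NBPF10, 69.2% in NBPF14, 100% in NBPF8 and 0% in NBPF1. No filter on mapping quality is stated for the reads, so a value at 1 copy may hold reads of another copy, and its part in the results was not tested. The windows had a median GC content of 43.6% in WT DMSO cells, against 46.2% over all windows of the chromosome.

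The 5′ part of the NOTCH2NL genes carried the strongest window of NOTCH2NLA in WT DMSO cells. The printed stretch held 67.3% G and C and 24 CpG sites, and on the gene strand G outnumbered C, with a skew, (G − C)/(G + C), of 0.21. At NOTCH2NLA its fold was 11.6, 4.96, 4.77, 6.3, 4.77 and 6.81 in the 6 DRIP lists, with pileups of 118, 67, 57, 86, 68 and 115. WT DMSO cells thus had the highest value, and the other 5 lay within 4.77 to 6.81. At NOTCH2NLC, the fold was 4.6, 7.24, 3.02, 4.88, 4.72 and 5.46, with pileups of 71, 91, 35, 76, 78 and 135. Here A3B KO cells were higher than WT cells at each time, the opposite of NOTCH2NLA with DMSO. At the shared start of NBPF14 and NOTCH2NLB, the fold was 7.54, 6.36, 5.08, 5.73, 3.88 and 7.01. The copies of NOTCH2NLR, a partial copy beside NBPF26, and of NOTCH2 itself reached 4.98 and 6.87 in WT DMSO cells and 5.81 and 6.55 in A3B KO DMSO cells. NOTCH2NLR had no summit in A3B KO cells at 2 h of PMA and NOTCH2 none in WT cells at 2 h.

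**Figure D2:**
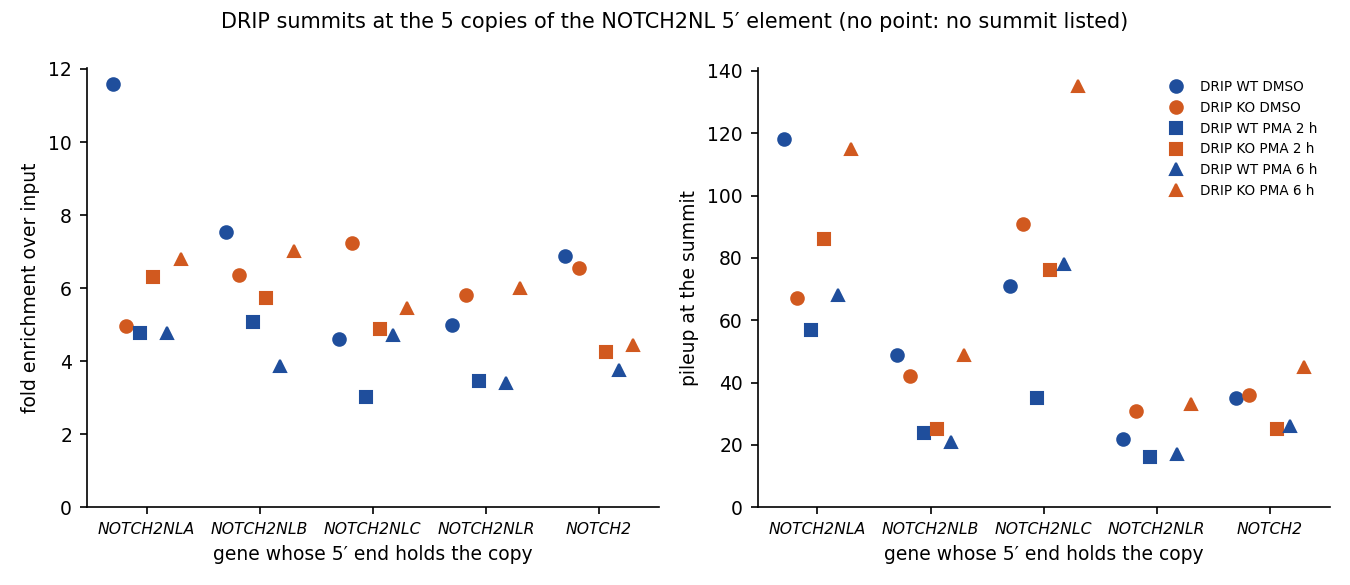
Fold enrichment over input (left) and pileup at the summit (right) of the DRIP summit at each of the 5 copies of the NOTCH2NL 5′ element; blue marks WT, orange A3B KO, and the shape the treatment, with 1 library per point and no error. NOTCH2NLA in WT DMSO cells, at a fold of 11.6, stands above the other points, which lie between 3.02 and 7.54.

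Further inside, a stretch 21666 bp from the start of NOTCH2NLC was chosen because it was called there in all 6 DRIP lists, so more calls at NOTCH2NLC than at its copies follow from the choice. Runs of 150 bases that recur filled a median of 48.9% of the DRIP windows of NOTCH2NLC, where reads may not separate the copies. Its folds were 2.74, 6.51, 7.29, 6.49, 9.11 and 7.92. The copy in NOTCH2NLA, 99% identical, was called in A3B KO cells at 6 h of PMA alone, at a fold of 14.3 and a pileup of 111, the strongest summit of NOTCH2NLA in any list. The copies of NOTCH2NLR and NOTCH2NLB were called in A3B KO DMSO cells alone, at 3.11 and 4.31, and the copy in NOTCH2 in no list.

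At about 6 kb from the start, where the printed copies differ most, DRIP windows were called in NBPF1, NBPF9 and NBPF20 in all 6 lists. NBPF1 had folds of 3.27, 2.72, 3.55, 3.24, 3.43 and 3.41 there, with pileups of 62, 53, 61, 56, 81 and 90, in windows whose midpoints lay in an exon. No run of 150 bases in its windows recurred on the chromosome. NBPF3 was called at this place and nowhere else, at 3.15 in WT DMSO cells, 3.77 in WT cells at 2 h, and 3.67 and 3.81 in WT and A3B KO cells at 6 h, and it was not called in A3B KO cells with DMSO or at 2 h. Its pileups were 18, 19, 25 and 25. NBPF8 was called there in the 3 WT lists alone, at 3.64, 5.38 and 5.9, and this is 1 of the 2 places found in all WT lists and no A3B KO list. Runs of 150 bases that recur filled 0%, 1.71% and 0% of these 3 windows of NBPF8. NBPF20 had 3.24, 3.43, 3.32, 5.1, 3.03 and 4.3, and NBPF9 had 4.75, 3.69, 3.11, 2.94, 3.46 and 3.73. NBPF12 was called in 3 of the 6 lists, at 3.3 (A3B KO, DMSO), 3.62 (WT, 2 h) and 2.44 (A3B KO, 6 h). NBPF10 and NBPF14, whose annotated starts are those of NOTCH2NL copies, had no window at that distance. Among NBPF genes outside the chosen set, NBPF15 was called there in all 6 lists. NBPF4, NBPF6, NBPF11, NBPF19 and NBPF26 had no window there in any list.

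Deeper in the NBPF genes, copies of the same elements were called in several genes. Each element was chosen for its calls in all 6 DRIP lists in 1 gene. NBPF9 in all 6 lists and NBPF20 in 5 of them had their strongest summit near 20 kb from the start. These summits lay at copies of 1 element with 6 copies on the chromosome, called in all 6 lists in both genes. NBPF20 had folds of 6.09, 6.1, 12.3, 8.58, 8.13 and 6.65 there, highest in WT cells at 2 h of PMA, and NBPF9 had 9.38, 6.4, 6.59, 7.76, 9.96 and 8.91. The copy of NBPF12 had 5.11, 6.26, 4.76, 3.77, 5.48 and 6.97. The copy of NBPF8 was called in WT cells at 6 h alone, at 8.25, and that of NBPF11, 99.3% identical to that of NBPF20, in no list. A second element gave windows at 27626 bp in NBPF12, with folds of 6.26, 5.65, 7.01, 7.59, 7.75 and 8.57, and at 90041 bp in NBPF10, with 9.14, 5.12, 6.44, 9.15, 10.1 and 11. NBPF1 had 5.77, 5.24, 5.67, 6.04, 6.58 and 5.35 at its copy. Inside NBPF8, a pair of copies at 27153 and 33505 bp from the start are the same in all 300 bases compared. The second, chosen for its calls in all 6 lists, had 6.73, 8.14, 8.78, 6.88, 6.93 and 5.62, and the first was called in none. Recurring runs of 150 bases filled 100% of the windows at the second, so a read of that length cannot be placed there by its own bases. The reads were paired, and whether their mates tell the 2 copies apart was not tested.

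The 10 genes did not move in 1 direction between WT and A3B KO cells. With DMSO, 5 genes held fewer windows in A3B KO than in WT, 4 more and 1 the same. Among all protein-coding genes with a window in either list, 34.4% held fewer and 42.5% more. At 2 h of PMA, 6 held fewer and 4 more (all genes: 30% and 47.7%), and at 6 h, 2 held fewer, 6 more and 2 the same (36.1% and 42.8%). NBPF1 had 12 windows in A3B KO against 18 in WT with DMSO and 17 against 33 at 6 h, but 18 against 16 at 2 h. NBPF14 held more windows in A3B KO at each time, with 34 against 25, 30 against 25 and 27 against 21. NBPF10 had fewer with DMSO and at 2 h, 26 against 30 and 18 against 26, and more at 6 h, 45 against 25. These counts are of the kind that chose the genes, so nothing is read from them about a loss.

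The strongest summit of each gene was also placed among those of all genes with a window in both lists, where a rank does not depend on the length of a list. The strongest summit of a gene could lie at a different place in each list. With DMSO, 6 of 9 ranked genes stood lower in A3B KO than in WT, 4 of them by 1 or more on the log2 scale of the rank ratio, and 1 stood higher by as much. Over all 13020 genes ranked, 13% stood lower by 1 or more and 13.1% higher. The genes were chosen in part by falls in A3B KO cells, so nothing about a loss is read from these ranks. NBPF10 and NOTCH2NLA, which share their strongest summit in each of these lists, went from rank 718 to rank 4554, a log2 rank ratio of -2.67. These 2 of the 4 genes thus count 1 summit per list. That summit lay 777 bp from the start of NBPF10 in WT and 54648 bp from it in A3B KO, so these are different places. NBPF9 had -1.95 and NBPF14 -1.04, and NBPF20 stood higher, at 1.01. At 2 h, 2 of 9 stood lower by 1 or more (13.8%) and none higher (13.5%), with NBPF20 at -3.15 and NBPF8 at -1.57. At 6 h, 1 of 10 stood lower (13.3%), NBPF14 at -2.09, and 2 higher (13.2%), NBPF10 and NOTCH2NLA with 2.63 by a summit shared in each list. The places differed here too. They lay at 77335 bp in WT and 30365 bp in A3B KO for NBPF14, and at 80606 and 21311 bp for NBPF10. NBPF1 stood lower at all 3 times, at -0.82, -0.66 and -0.82, and no other gene with a rank at all 3 times kept its direction by fold. The result depended on the measure. By pileup, NBPF1 had -0.22, -0.57 and -1.41, NBPF9 (-1.15, -0.62 and -0.41), NBPF10 (-0.82, -0.92 and -0.02) and NBPF14 (-0.21, -0.42 and -0.42) also stood lower at all 3 times, and NOTCH2NLC (1.01, 2.27 and 1.64) stood higher at all 3. The median over the ranked genes was -0.82 with DMSO, 0.22 at 2 h and 0.03 at 6 h. Where windows of WT and A3B KO overlapped, the median log2 ratio of their folds, KO over WT, was -0.09, 0.00 and 0.01 for these genes and 0.02, 0.14 and -0.06 over the whole lists.

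**Figure D3:**
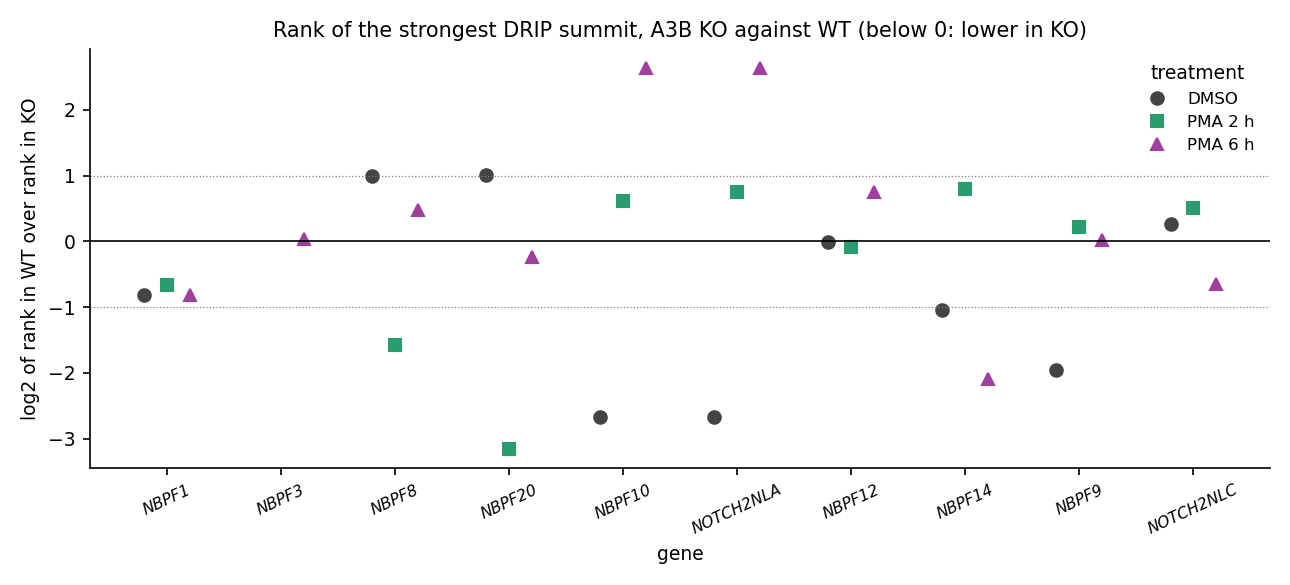
Log2 of the rank of the strongest DRIP summit of each gene in WT over its rank in A3B KO, among all protein-coding genes with a window in both lists, with DMSO (circles), PMA for 2 h (squares) and PMA for 6 h (triangles); values below 0 are lower in A3B KO, and dotted lines mark 1 and -1. NBPF1 lies below 0 at all 3 times, whereas NBPF10 and NOTCH2NLA go from -2.67 with DMSO to 2.63 at 6 h by fold. By pileup, which is not plotted, NBPF10 goes from -0.82 to -0.02 and NOTCH2NLA from -1.60 to 0.07. The strongest summit of a gene can lie at different places in WT and in A3B KO.

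The ratio of windows with PMA to those with DMSO was lower in these genes than in the whole lists each time. Exact intervals for counting error included the whole-list ratio in WT cells at 2 h and A3B KO cells at 6 h. They lay below it in WT cells at 6 h and A3B KO cells at 2 h. In WT cells, the genes held 0.99 times (0.748 to 1.31) as many windows at 2 h as with DMSO, against 1.22 times over the list. At 6 h it was 1.16 times (0.888 to 1.52), against 1.81. In A3B KO cells the ratios were 0.849 (0.634 to 1.14) against 1.22 at 2 h and 1.39 (1.07 to 1.8) against 1.72 at 6 h. With all DRIP lists held to the same length by −log10 q, the ratios at 6 h were 0.571 in WT and 0.743 in A3B KO, both below 1. By gene, 5 held fewer and 3 more in WT cells at 2 h (all genes: 35.7% and 45.4%), and 3 fewer and 6 more at 6 h (19.4% and 66%). In A3B KO cells, 6 held fewer and 2 more at 2 h (32.3% and 48.5%), and 1 fewer and 8 more at 6 h (18.7% and 65.5%). NBPF10 in A3B KO cells went from 26 to 18 and then 45 windows, and NBPF20 from 10 to 4 and then 22.

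Between treatments too, the strongest summit of a gene could lie at a different place in each list. By rank of that summit, 3 of 10 genes stood lower by 1 or more in WT cells at 2 h (16.9% of all genes) and 1 higher (18%). These 3 were NOTCH2NLA, at -3.77, NBPF10, at -2.83, which shares the WT DMSO summit with it, and NBPF9, at -2.16, and NBPF20, at 3.73, was the 1 higher. By pileup, NBPF10 had 0.46 and NBPF9 0.88, while NOTCH2NLA, at -1.99, and NBPF20, at 2.78, kept their direction. At 6 h in WT cells, 3 stood lower (16.9%) and 1 higher (18.3%), NBPF14 at 2.68, whose summit at 77335 bp from the start had a fold of 17.1, the highest in these genes in any list. In A3B KO cells, 1 stood lower (16.3%) and 1 higher (16.7%) at 2 h. At 6 h, 1 stood lower (15.7%) and 3 higher (16.1%), NBPF10 and NOTCH2NLA with 3.66 by a summit shared in each list and NBPF14 at 1.65. That shared summit lay 54648 bp from the start of NBPF10 with DMSO and 21311 bp from it at 6 h. The 1 that stood lower, NBPF20 at -1.33, had 2.86 by pileup.

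Anti-GFP ChIP windows were listed in these genes without doxycycline and were fewer with it, by a count that rested on NBPF1: the other 9 genes held 10 without doxycycline and 25 with it. The genes held 60 windows in the DOX- list (1.49%, 1.16 to 1.91), 48 in the DOX+ list (0.807%, 0.61 to 1.07) and 24 in the DOX+ PMA list (0.337%, 0.227 to 0.501). Per 100 kb, that was 7.43, 5.94 and 2.97 windows, against 0.123, 0.25 and 0.321 over protein-coding genes. The DOX+ to DOX- ratio of windows was 0.8, with an exact interval for counting error of 0.536 to 1.19. That interval covers both a fall and a rise. No sample with PMA and no doxycycline was analysed here. In the DOX- list, 3 of the 10 genes held a window, NBPF1, NBPF12 and NBPF14, against 1.64% of protein-coding genes, and these windows are among the values that chose the genes. In the DOX+ list, 4 held one (9.67%), and in the DOX+ PMA list, 6 did (7.81%). With doxycycline, 2 of the 5 genes with a window in either list held fewer and 3 more, against 10.6% and 87.6% of all such genes. The 10 genes were chosen in part by DOX- windows, so a fall from that list follows in part from the choice. With PMA added, 3 of 6 held fewer and 3 more (49% and 38.8%).

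NBPF1 carried most of the ChIP windows, with 50 without doxycycline, 23 with it and 8 with PMA added. Its 50 windows placed it at position 6 of all protein-coding genes, of which 0.31% held at least 10. The folds in the DOX- list ran from 2.03 to 4.49 with a median of 3.19, those in the DOX+ list from 2.53 to 4.67 with a median of 3.21, and those in the DOX+ PMA list from 2.36 to 3.49 with a median of 2.78. The windows were fewer with doxycycline, and the fold ranges of the 3 lists overlapped. The windows of the DOX- list covered 22.7 kb of the gene and lay from just upstream of the start to 50719 bp, as the map of NBPF1 shows. With doxycycline the first lay at 11711 bp and the last at 40854 bp. The strongest summits lay at 32657 bp (DOX-, fold 4.49) and 31925 bp (DOX+, fold 4.67). In the DOX- list, 21 of the 50 windows had no run of 150 bases that recurs on the chromosome. Of the 114 DRIP windows of NBPF1, 62 lay between 27 and 40 kb from the start. Of the 50 DOX- ChIP windows, 20 (40%, 27.6 to 53.8) overlapped a WT DMSO DRIP window.

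**Figure D4:**
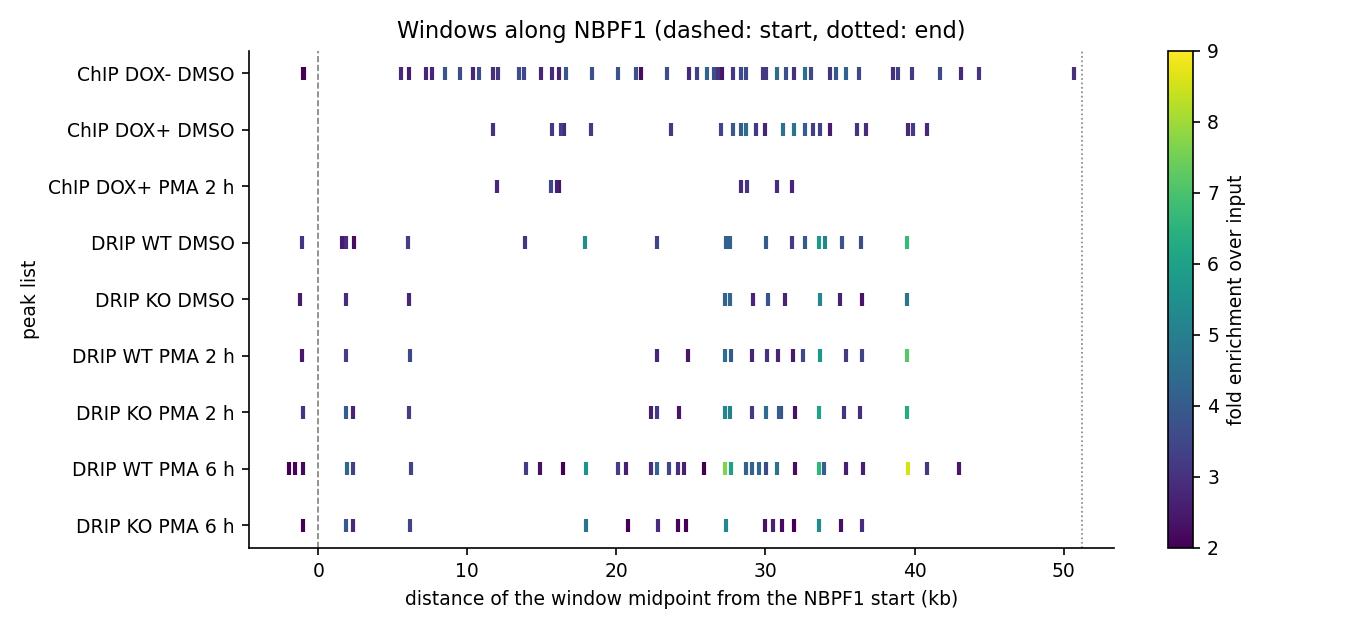
Called windows along NBPF1 in the 3 ChIP and 6 DRIP lists, by distance of the window midpoint from the gene start in kb, coloured by fold enrichment over input. The 50 windows of the DOX- ChIP list spread over the gene to 50719 bp, while 62 of the 114 DRIP windows lie between 27 and 40 kb.

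The run of ChIP windows did not stop at the end of NBPF1. In steps of 50 kb, the DOX- list held 12 windows in the step before the start, 47 in the first step of the gene, 28 in the next, which begins at its end, and 0 in the next 3. The DOX+ list held 1, 23, 9 and then 0, and the DOX+ PMA list 0, 8, 4 and then 0. In the DRIP list of WT DMSO cells, the same steps held 12, 17 and 9 windows, and then 7, 7 and 10. CROCC, which encodes the rootlet protein of cilia and lies upstream of NBPF1, held more ChIP windows than NBPF1, with 112, 96 and 110, and MST1L, inside CROCC, held 13, 11 and 10.

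NBPF14 had more ChIP windows with doxycycline, 21 against 7, and 8 with PMA added. Their folds had medians of 3.58, 3.29 and 3.35, and all but 1, at 43 bp from the start with doxycycline, lay from 111159 to 136779 bp from it. NBPF12 held 3 windows without doxycycline, from 49312 to 51364 bp, none with it, and 1 with PMA, at 28107 bp. NBPF10 held 0, 4 and 6. With doxycycline, windows also appeared at starts. NOTCH2NLA had 2, of which the stronger lay at 76 bp with a fold of 1.91 and a pileup of 96, and with PMA 1 at 47 bp with a fold of 1.55 and a pileup of 96. NOTCH2NLC had 1 with PMA, 107 bp upstream of the start, with a fold of 1.89 and a pileup of 165, the highest ChIP pileup in these genes. By fold, these start windows were among the weakest of their lists. Those of NOTCH2NLA ranked 5829 of 5945 (DOX+) and 7115 of 7122 (DOX+ PMA), and that of NOTCH2NLC ranked 6962 of 7122. NBPF3, NBPF8, NBPF9 and NBPF20 had no ChIP window in any list.

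ChIP windows of these genes overlapped DRIP windows at shares that could not be told from those of the whole lists within counting error. Of the 60 windows of the DOX- list, 26 (43.3%, 31.6 to 55.9) overlapped a WT DMSO DRIP window, against 37% of the whole list. The shares were 54.2% (40.3 to 67.4) against 43.7% in the DOX+ list, and 54.2% (35.1 to 72.1) against 42.7% for the DOX+ PMA list and WT DRIP at 2 h. The intervals for these genes included the share of the whole list each time, and the DRIP cells carried no A3B-eGFP. When an overlap of at least 250 bp was required, the shares were 23.3%, 27.1% and 33.3%, against 22.8%, 27.8% and 27%. Of the 192 places, 50 had a ChIP window, and 15 of these were called in all 6 DRIP lists. Places were not counted over the whole lists. Of the 60 DOX- windows, 28 (46.7%, 34.6 to 59.1) overlapped a DOX+ window, against 41.8% of the whole list. Of the 48 DOX+ windows, 24 (50%, 36.4 to 63.6) overlapped a DOX- window, against 26.9%. The genes were chosen in part by their DOX- windows, so overlap with that list follows in part from the choice. Nothing is read from the overlap between ChIP lists.

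Related genes that were not chosen held DRIP windows too and no ChIP window without doxycycline. Of 9 other genes of the families, 7 held a window in WT DMSO cells (22 windows) and 7 in A3B KO DMSO cells (28 windows), and 0 held one in the DOX- list. Among all protein-coding genes, 70.1%, 71.9% and 1.64% held one in these lists. NBPF15 held 5, 5, 4, 4, 7 and 17 DRIP windows, NBPF26 held 6, 4, 10, 4, 8 and 6, and NOTCH2NLB held 5, 5, 5, 6, 6 and 7, all also counted to NBPF14. NOTCH2 held 1, 3, 2, 6, 4 and 8, and NBPF19 held 3, 8, 1, 6, 2 and 4. NBPF4 and NBPF6 held none. Between WT and A3B KO with DMSO, 1 of the 7 held fewer and 3 more (all genes: 34.4% and 42.5%).

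Most other duplicated genes of chromosome 1 carried DRIP windows and no ChIP window. All 15 genes listed held a DRIP window in WT DMSO cells (all protein-coding genes: 70.1%). A DOX- ChIP window was held by 2 (1.64%), CROCC and MST1L. The windows of MST1L, inside CROCC, are also counted to CROCC. SRGAP2, a regulator of neuronal migration, held 19, 18, 17, 26, 27 and 26 DRIP windows. Its partial copies SRGAP2B and SRGAP2C held 23, 20, 25, 27, 25 and 29, and 12, 14, 16, 12, 21 and 20. HYDIN2, a copy of a gene for motile cilia, held 13, 14, 14, 16, 31 and 28. In A3B KO against WT with DMSO, 6 of the 15 held fewer windows and 5 more (all genes: 34.4% and 42.5%).

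In the Notch pathway, on which NOTCH2NL proteins act, windows were listed at 18 of 32 genes in WT DMSO cells (all protein-coding genes: 70.1%) and at 23 in A3B KO DMSO cells (71.9%), and at 0 in the DOX- list (1.64%). Of the 23 genes with a window in either DMSO list, 3 held fewer in A3B KO than in WT and 15 more, against 34.4% and 42.5% of all genes. Summed over the 6 DRIP lists, the most windows were at NUMB, an inhibitor of Notch, with 16, 14, 20, 28, 22 and 27, and at RBPJ, the DNA-binding partner of Notch, with 12, 16, 19, 15, 24 and 25. The coactivators MAML3 and MAML2 held 10, 16, 16, 15, 30 and 23, and 4, 11, 19, 14, 25 and 23. With doxycycline, 4 of the 32 held a ChIP window (all protein-coding genes: 9.67%), HES1, a target of Notch, among them with 2, and with PMA 6 did (7.81%).

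Genes with counts most like those of NBPF1 over the 9 lists were sought among genes that also hold many DOX- ChIP windows. The distance was taken between log2(windows + 1) among 61 genes with at least 10 DOX- ChIP windows that overlap none of the 10. Such windows are among the values that chose the 10 genes, so likeness in the DOX- list follows in part from this filter. RASA4B was nearest (distance 1.90), with 32, 18 and 24 ChIP windows, followed by NPIPB11 (1.93), ZDHHC11 (2.01), NPIPB12 (2.05) and CATSPER2 (2.06).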

How the data were processed

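DRIP–seq of 6 conditions and anti-GFP ChIP–seq of 3 were read from the 9 deposited peak lists of 18 samples; the 9 inputs entered through the calls of the authors alone. Each condition has 1 library, which allows no test. The Wilson intervals (95%) and the exact intervals of ratios of windows are for counting error alone. The 10 genes and the gene lists were chosen with earlier results of these data known.

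The authors trimmed reads with Cutadapt 1.13, aligned them to hg38 with STAR 2.6.1d, used SAMtools 1.3.1 to keep properly paired reads, Picard against duplicates and bedtools 2.29.2 for an exclusion list, and called peaks with MACS2 (2.2.6 in the submitters' processing notes, another version in the methods) at q 0.01. The deposited pileup is the authors' signal at the summit, with no scaling between libraries stated. The deposited fold enrichment is the authors' ratio over the local background, and the deposited −log10 p-values and −log10 q-values are theirs for the immunoprecipitation against its input. Read depth is unknown. Only windows on the autosomes and the X chromosome were kept, so mitochondrial and all other entries were left out. Starts were read as counted from 0, which could shift a window by 1 bp.

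Genes came from GENCODE 44, a later release than the one the methods name. An overlap of 1 bp or more made windows shared. Windows of the genes that overlapped in any list were merged into places. Copies were found with BLAST 2.17.0 on chromosome 1 at 95% identity over 80% of a window. Elements of 300 bp were centred on the place called in all 6 DRIP lists with the highest median fold in each gene, and that of NBPF14 is not reported here. The element comparison, the position at 6 kb, the steps around NBPF1 and the search for runs of 150 bases were added after the data were seen. Named genes outside the 10 were APOBEC3A and APOBEC3B, genes of 3 lists with a ChIP window without doxycycline, up to 4 others of each list with the most DRIP windows (of the families 5, since NOTCH2 and NBPF19 tied), and the 5 genes most similar to NBPF1. Genes similar to the median of the 10 are not given, since it holds 0 windows without doxycycline and candidates had to hold at least 10. NOTCH2NLR, NBPF11, NBPF4, NBPF6 and HES1 were named after their values were seen. Alternatives were a −log10 q of at least 5, any overlap of the window with the gene, the gene alone, merged windows, the set without NBPF1, equal list lengths, other measures for ranks, an overlap of 250 bp and an identity of 98%. Counting steps were tested on simulated lists. The scripts ran in Python 3.11.15 with pandas 2.3.3, numpy 2.4.6, matplotlib 3.10.9 and scipy 1.17.1.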

Additional observations from a re-analysis of the deposited data

Results flagged for a closer look

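The windows of NBPF20 moved in opposite directions with PMA at 2 h, by 4 in WT cells and by -6 in A3B KO cells (8 to 12 and 10 to 4). Those of NBPF10 did so at 6 h, by -5 in WT cells and by 19 in A3B KO cells (30 to 25 and 26 to 45). Both were picked out because the changes were at least 3 windows each way, and the differences were not tested, since each condition is 1 library.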

How the results depend on the processing

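No paired analysis was possible because every condition has 1 library. Without NBPF1, the share of the list fell to 0.0598% in A3B KO at 2 h, 0.0537% in WT at 6 h, and 0.248%, 0.421% and 0.225% in the DOX-, DOX+ and DOX+ PMA ChIP lists (10, 25 and 16 windows), and the DOX+ to DOX- ratio of windows was 2.5 in place of 0.8. With equal list lengths, the ratio of windows at 6 h of PMA to DMSO was 0.571 in WT (1.16 before) and 0.743 in A3B KO (1.39 before), and the cause was not tested. Ranked by pileup, 7 genes stood lower in A3B KO at 2 h (4 by fold). In PMA against DMSO, 2 (WT, 2 h), 4 (WT, 6 h) and 0 (A3B KO, 6 h) stood lower by pileup, against 6, 7 and 4 by fold, and 4 (WT, 6 h) by −log10 q. The shares of ChIP windows in DRIP windows were 23.3%, 27.1% and 33.3% at an overlap of 250 bp, and 36.4% for the DOX+ list at −log10 q of at least 5. At 98% identity, windows with a copy made up 80%, 83%, 79.8%, 80%, 71.3% and 83% in the DRIP lists in the order of the report, and 56.7%, 81.2% and 79.2% in the ChIP lists. Ratios of windows near 1 crossed it: A3B KO to WT with DMSO, at 1.01, ran from 0.962 (equal list lengths) to 1.08 (without NBPF1), and 2 h of PMA to DMSO in WT, at 0.99, from 0.895 (equal list lengths) to 1.09 (−log10 q of at least 5). Of 66 log2 rank ratios of single genes in DRIP–seq, 28 turned sign by pileup and 16 by −log10 q. The other counts and shares over the 10 genes stayed within their counting intervals or within 1.5 times under the alternatives run. Depth is unknown, and a place that is not listed may lie below the threshold of the authors.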
